A study of Mus musculus with 8 samples.

Results

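Type I interferon-stimulated genes are the 33 genes of a list of the antiviral programme that alpha and beta interferons switch on, taken by symbol from the 45706 rows of the count table. All 33 were measured, with at least 10 counts in 1 library or more, and the 32 with at least 10 counts in 2 libraries were tested. Oasl1, with 11 counts at most, was the untested member. Chromatin-associated RNA, the nuclear fraction that is rich in transcripts still being made, was sequenced from primary mouse embryonic fibroblasts (MEFs) of the C57BL/6 strain, as 50-base single reads. Wild-type cells (WT) were set beside crel-/-rela-/- cells (KO), which lack the NF-kB subunits cRel and RelA. Both were starved overnight in 0.5% serum and then received 10 ng/ml tumour necrosis factor (TNF) for 15, 45 or 60 min or were collected at 0 min. The 8 libraries are 1 per genotype and time. No label says that they came from separate cultures or embryos, or how many embryos were pooled, and none gives the deleted parts of the genes. The 8 libraries include no untreated one at 15, 45 or 60 min, so a change after TNF cannot be told apart from one with time or handling.

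Interferon alpha and beta bind a receptor made of IFNAR1 and IFNAR2, whose kinases JAK1 and TYK2 phosphorylate STAT2 among others. STAT2 and IRF9 are parts of ISGF3, a factor that binds the interferon-stimulated response element (ISRE) in the promoters of antiviral genes. Fibroblasts make interferon beta when viral RNA or DNA is sensed, and NF-kB is one of the factors on the interferon beta promoter. A low constant interferon signal is known to keep many of these genes on at a low level in unstimulated cells. TNF acts through its own receptors, which activate NF-kB directly.

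The promoters are shown for 6 members that the results return to, since most of the list moved together between the genotypes. Each line is 80 bases upstream of the RefSeq transcription start in the GRCm38.p6 build, in the direction of transcription, with matches to the ISRE core on either strand in capitals. The core is GAAA, any 2 bases and GAAA, which reads TTTC, any 2 bases and TTTC on the opposite strand. Only promoters with such a match upstream of the start were printed, so these lines do not show how common it is in the list. The first is Isg15 at chr4:156200840-156200919, minus strand, followed by Oas1a at chr5:120907526-120907605, minus strand, and Stat2 at chr10:128270248-128270327, plus strand. The last 3 lie on the plus strand of chromosome 19 and belong to Ifit3 at chr19:34583372-34583451, Ifit3b at chr19:34607768-34607847 and Ifit1 at chr19:34640769-34640848.
Isg15: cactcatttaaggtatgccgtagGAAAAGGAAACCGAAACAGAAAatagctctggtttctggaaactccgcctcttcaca
Oas1a: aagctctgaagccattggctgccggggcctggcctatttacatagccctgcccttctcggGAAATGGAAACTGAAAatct
Stat2: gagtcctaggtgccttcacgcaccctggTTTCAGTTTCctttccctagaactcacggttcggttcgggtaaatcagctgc
Ifit3: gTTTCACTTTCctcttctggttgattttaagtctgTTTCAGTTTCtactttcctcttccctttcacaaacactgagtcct
Ifit3b: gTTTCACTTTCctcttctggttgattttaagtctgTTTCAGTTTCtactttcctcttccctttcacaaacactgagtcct
Ifit1: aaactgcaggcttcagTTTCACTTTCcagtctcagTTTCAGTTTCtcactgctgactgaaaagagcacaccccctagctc
The 80 bases of Ifit3 and Ifit3b are the same letter for letter, and the Isg15 window holds 3 overlapping matches. In the 300-base windows that RefSeq gives, 250 bases before to 50 after each start, the ISRE core was found in 12 of 24 windows of the 23 members matched (50.0%), against 3.44% of 32851 windows of all genes. The GAS core TTCNNNGAA, the letters bound by STAT dimers, was in 5 of the 24 windows (20.8%) against 8.3% of all, and it overlapped an ISRE core in Bst2. The kappa B core (GGGA, any base and TTTCC), one form of the NF-kB motif, was in 0 of the 24 windows and in 0.411% of all windows. With so rare a match, 24 windows are too few for this 0 to show that the promoters lack NF-kB sites. A match is a match of letters and not a measured binding site. The table used held no window for Mx1, Mx2, Oas2, Usp18, Dhx58, Parp9, Parp14, Rtp4, Zbp1 and Ifi27.

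Library totals ran from 12359817 to 15607331 counts, of which 58.92% to 70.62% fell on 3 gene models (Gm26917, Gm42418 and Malat1). Levels are given as CPM, which are counts scaled to a common TMM-adjusted library size. A count of 0 allows up to 3 counts, which is 0.179 to 0.265 CPM depending on the library, and all intervals cover counting error only, since PCR copies are not independent molecules. Counts of a gene are given in the order 0, 15, 45 and 60 min. The counts over the whole Rela and Rel genes check nothing about the labels, because the deleted parts are not given: Rela had WT counts of 324, 406, 704 and 589 and KO counts of 306, 241, 291 and 324, and Rel had WT counts of 151, 173, 805 and 506 and KO counts of 478, 308, 538 and 633. Summed fibroblast markers were 9020 to 11500 CPM in WT and 9900 to 13300 in KO. Of these 10 markers 3 were called between the genotypes (edgeR, adjusted p under 0.05). Pdgfra and Pdgfrb were lower in KO, with log2 fold changes of -0.68 and -0.47, and Fn1 was higher (0.28). The KO library at 0 min stood apart in its cartilage markers, at 383 CPM against 18.1 to 46.7 in the later KO libraries and 6.83 to 11.1 in WT, and in its epithelial markers, at 12.4 CPM against at most 4.29 elsewhere. Epithelial markers were higher in every KO library (2.47 to 12.4 CPM) than in any WT library (0.722 to 1.22). Endothelial markers were too, at 8.97 to 14.7 CPM in KO and 3.68 to 5.3 in WT. The part of such cells in the genotype difference of the members was not tested. Markers of lymphocytes and plasmacytoid dendritic cells, the latter a specialised interferon source, summed to at most 0.265 CPM.

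Interferon-stimulated genes were lower in KO than in WT over the 4 times. Of the 32 tested members, 31 were lower in KO and 0 were higher (edgeR quasi-likelihood test, adjusted p under 0.05), where 9.44% of all 15049 tested genes were called lower and 6.81% higher. No member was higher at an unadjusted p under 0.05, which 4565 of all 15049 tested genes had in either direction. None was higher by DESeq2 or limma-voom, and these tools called 28 and 31 lower. The median log2 fold change of the members was -1.37, beside 0.01 for all tested genes, and single members ran from -3.22 (Oas1a) to -0.16 (Ifit2). In 30 of 33 members all 4 KO libraries lay below all 4 WT libraries, against 7.75% of all tested genes, and the 3 exceptions were Mx1, Ifit3b and Ifit2. The 30 include Oasl1, which was too low to test. In 0 members did all KO libraries lie above all WT libraries (5.84% of all tested genes). KO was below WT at each of the 4 times in 32 of 33 members, against 18.3% of all tested genes. The same shares of all tested genes stand beside the counts given below for groups of members. Members were chosen with earlier results of these data known. In bulk RNA of this kind, fewer cells that make a transcript cannot be told apart from less transcript per cell.

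Macrophage markers moved the same way. Their sum over 13 genes was 72.2 to 103 CPM in WT and 7.39 to 9.35 in KO, and 12 of the 13 were called lower, with a median log2 fold change of -4.85 (-7.28 to -0.29). Among the defining markers, Ptprc had WT counts of 188, 168, 156 and 144 and KO counts of 1, 2, 0 and 1, and Adgre1 had WT counts of 132, 112, 72 and 88 and KO counts of 0, 0, 0 and 2. These 2 markers were at or near 0 in KO, while Csf1r had 13, 8, 3 and 4 counts there against 230, 222, 248 and 159 in WT. All tested members fell by less than the median marker, which does not show what share of their counts came from macrophages. Stat2 had 562 to 1021 counts in the KO libraries, where Ptprc had at most 2, but a single member does not represent the list. The part of macrophages in the genotype difference of the members was not tested.

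**Figure D1:**
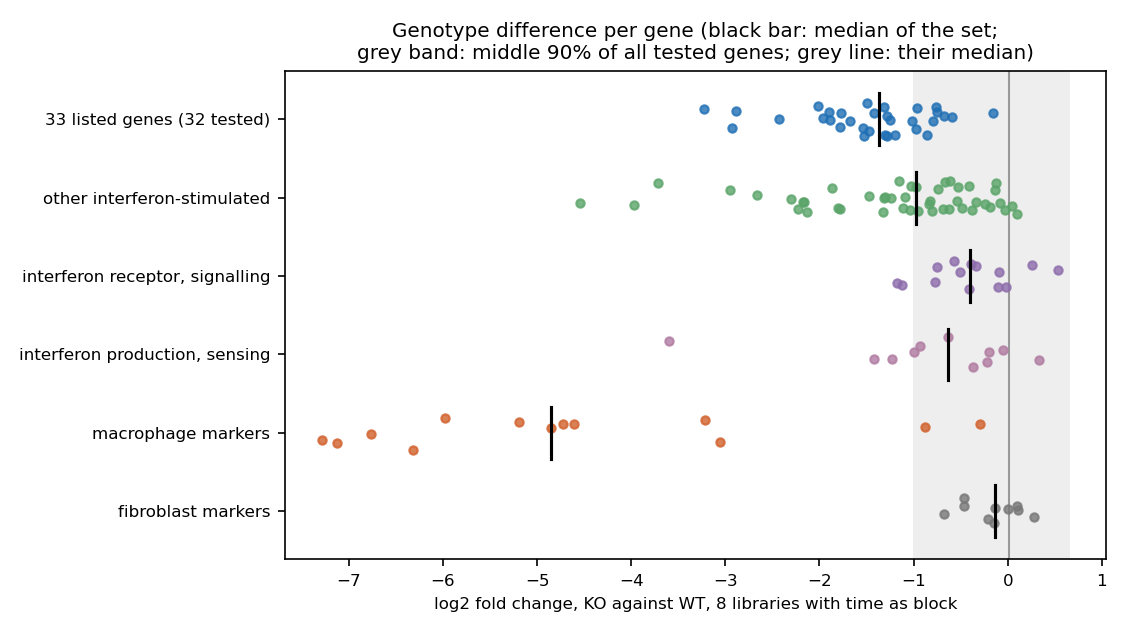
Log2 fold change of each gene in KO against WT (x axis, 8 libraries with time as a block) for the 32 tested interferon-stimulated genes, 3 related sets and 2 sets of cell markers (y axis), with the median of each set as a black bar and the middle 90% of all tested genes as a grey band (-1.0 to 0.65). The interferon-stimulated genes centre on -1.37, between the fibroblast markers at -0.14 and the macrophage markers at -4.85.

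At 0 min, before TNF, all 33 members were below WT in KO, and 20 were at least 2-fold lower by a rule of size (a ratio with a 95% interval that excludes 1, and 20 counts or more in the higher library). That rule marked 3.37% of all tested genes as lower and 1.91% as higher, and 0 members as higher. These are ratios of 1 library to 1 library, with no replicate check and no test, and the KO library is the one that stood apart in its cartilage markers. Without the 0 min libraries of both genotypes 29 members were called lower over the remaining times. The median log2 ratio of the tested members was -1.37 at 0 min, -1.0 at 15 min, -1.57 at 45 min and -1.48 at 60 min, beside 0.01, 0.01, 0.00 and 0.01 for all tested genes. By size 14 members were lower at 15 min, 25 at 45 min and 20 at 60 min, where 3.44%, 5.58% and 5.7% of all tested genes were, and 0 were higher at any time (1.83%, 2.75% and 2.43%). The members' CPM summed to 599.17, 533.6, 553.41 and 550.31 in WT at 0, 15, 45 and 60 min and to 271.49, 288.16, 198.61 and 235.06 in KO. Every KO sum lay below every WT sum.

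**Figure D2:**
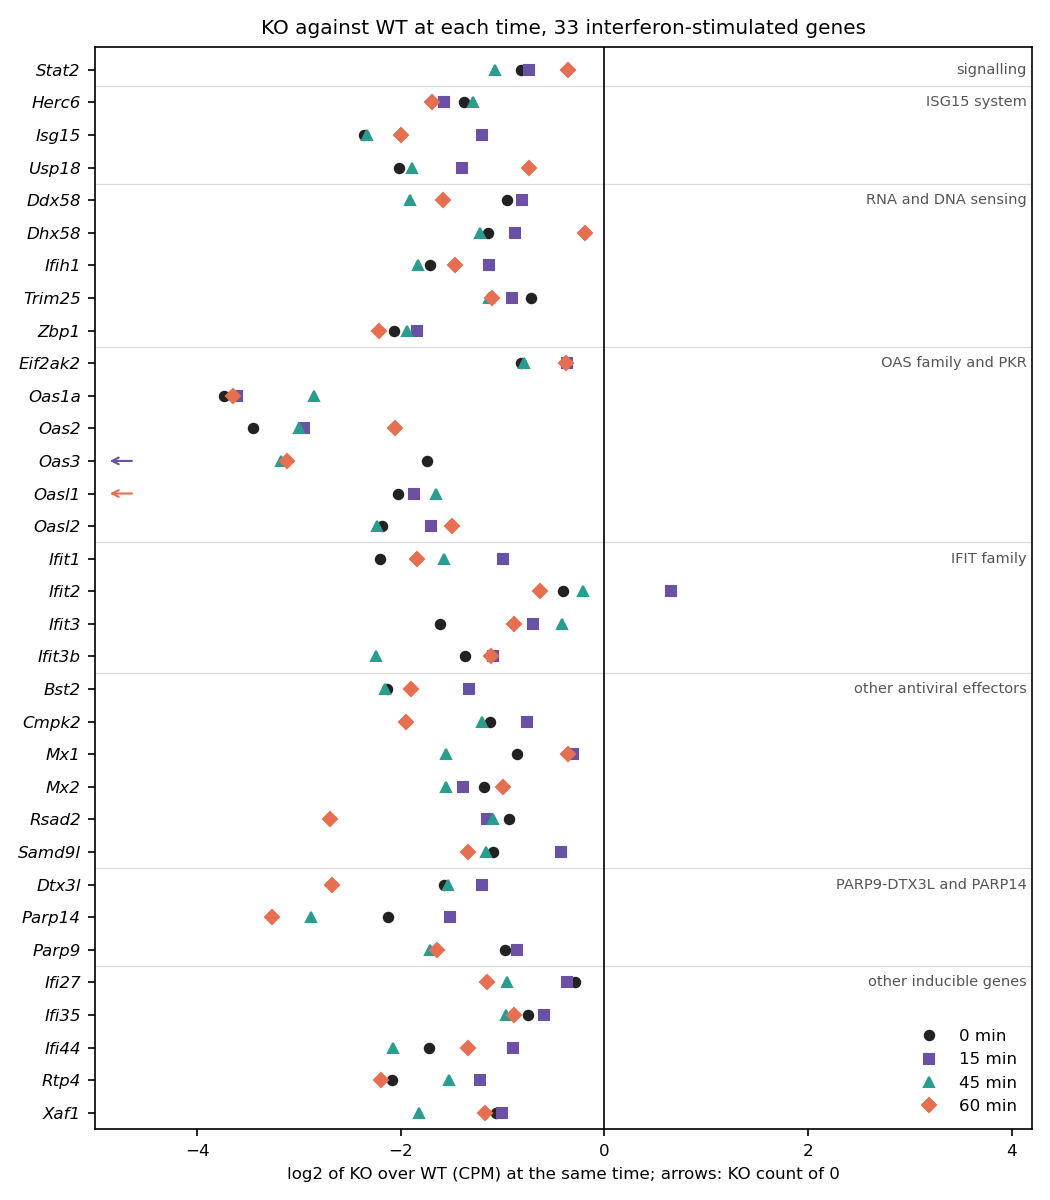
Log2 ratio of KO over WT (x axis, CPM) for each of the 33 genes (y axis, grouped by role) at 0, 15, 45 and 60 min, 1 symbol per time. All points lie to the left of 0 except Ifit2 at 15 min, and arrows at the left edge mark a KO count of 0.

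Per length, the order of levels in WT at 0 min ran from Stat2, at 24.5 CPM per kilobase of exon, through Ifi27 (16.5), Bst2 (13.4) and Isg15 (11.8) down to Oas1a (0.424), Oasl1 (0.281) and Oas3 (0.0565). In KO at 0 min Stat2 (13.9) and Ifi27 (13.5) led and were nearly level, and Ifi35 (5.23), Eif2ak2 (4.61) and Ddx58 (4.5) came next. Isg15 stood above Eif2ak2 in WT (11.8 against 8.16 CPM per kilobase) but below it in KO (2.29 against 4.61). With 1 library per genotype these orders have no replicate error.

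STAT2 is the subunit of ISGF3 used by type I but not by type II interferon. Differences between the genotypes are given here as log2 fold changes of KO against WT ± SE over the 8 libraries, with edgeR's adjusted p. Stat2 had WT counts of 1619, 1505, 1309 and 1126 and KO counts of 1021, 735, 562 and 845, a log2 fold change of -0.75 ± 0.11, adjusted p = 0.0011. Its 4 KO levels, 44.6 to 64.9 CPM, did not reach the lowest WT level of 81.3 CPM, and at 0 min KO held 0.566 (0.523 to 0.612) of the WT level (95% interval). Irf9, named for its place in ISGF3 after its values were seen, was lower too, with WT counts of 565, 546, 476 and 507 and KO counts of 460, 404, 332 and 377 (-0.33 ± 0.09, adjusted p = 0.026).

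ISG15 is a ubiquitin-like protein that is joined to other proteins after interferon, HERC6 is the ligase that does this in mice, and USP18 removes ISG15 and also binds IFNAR2 to damp the receptor. All 3 fell in KO. Isg15 had WT counts of 134, 79, 84 and 83 and KO counts of 29, 28, 15 and 20, a log2 fold change of -1.97 ± 0.21, adjusted p = 0.000217, and its KO level at 0 min was 0.194 (0.125 to 0.292) of WT. Usp18 had WT counts of 203, 136, 111 and 78 and KO counts of 56, 42, 27 and 45 (-1.53 ± 0.20, adjusted p = 0.000667), with a ratio of 0.248 (0.181 to 0.334) at 0 min. Herc6 had WT counts of 126, 84, 68 and 74 and KO counts of 54, 23, 25 and 22 (-1.47 ± 0.16, adjusted p = 0.000211), with a ratio of 0.385 (0.274 to 0.533). In none of the 3 did a KO library overlap a WT library in CPM. The Isg15 promoter is the one printed above with 3 overlapping ISRE cores.

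The sensors of foreign nucleic acid were lower as well, with 5 of 5 called. Ddx58 encodes RIG-I, a sensor of viral RNA ends, and had WT counts of 922, 798, 1347 and 1257 and KO counts of 531, 372, 323 and 402, a log2 fold change of -1.31 ± 0.16, adjusted p = 0.000461. At 0 min its ratio was 0.517 (0.464 to 0.576). Ifih1, which encodes the long-RNA sensor MDA5, had WT counts of 353, 266, 297 and 218 and KO counts of 120, 99, 75 and 76 (-1.54 ± 0.13, adjusted p = 5.23e-05), a ratio of 0.305 (0.246 to 0.376) at 0 min. Dhx58, encoding LGP2, which tunes the other RNA sensors, had WT counts of 139, 133, 93 and 82 and KO counts of 70, 59, 36 and 69 (-0.85 ± 0.18, adjusted p = 0.00913), and this call was lost when a 45 min library was left out (adjusted p = 0.0518). Zbp1, a sensor of Z-form nucleic acid that can start cell death, had WT counts of 45, 22, 17 and 29 and KO counts of 12, 5, 4 and 6 (-2.02 ± 0.27, adjusted p = 0.000801). Trim25, a ubiquitin ligase linked to RIG-I activation, had WT counts of 589, 547, 511 and 519 and KO counts of 397, 238, 210 and 232 (-0.96 ± 0.10, adjusted p = 0.000137). The KO libraries lay below the WT libraries in all 5, and Zbp1, with 4 to 12 counts in KO, was the least precisely measured.

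The OAS proteins make 2-5A from ATP when they bind double-stranded RNA, which activates RNase L, and EIF2AK2 (PKR) stops translation on the same cue. This group held both the largest and one of the smallest differences of the list. Oas2 had WT counts of 147, 104, 80 and 65 and KO counts of 15, 11, 9 and 15, a log2 fold change of -2.88 ± 0.23, adjusted p = 3.84e-05, and its KO level at 0 min was 0.0916 (0.05 to 0.156) of WT. Oasl2, an OAS-like protein, had WT counts of 570, 431, 376 and 410 and KO counts of 140, 108, 72 and 140 (-1.89 ± 0.13, adjusted p = 1.83e-05), a ratio of 0.22 (0.182 to 0.266). Oas1a had WT counts of 12, 15, 24 and 13 and KO counts of 1, 1, 3 and 1 (-3.22 ± 0.43, adjusted p = 0.000724) and Oas3 had WT counts of 6, 11, 10 and 9 and KO counts of 2, 0, 1 and 1 (-2.93 ± 0.61, adjusted p = 0.00964), so that both KO values rest on 3 counts or fewer per library. Oasl1, which was too low to test, had WT counts of 11, 9, 7 and 3 and KO counts of 3, 2, 2 and 0. Eif2ak2 had WT counts of 626, 500, 482 and 395 and KO counts of 394, 316, 252 and 292, a log2 fold change of only -0.59 ± 0.11, adjusted p = 0.00415, and a ratio of 0.565 (0.497 to 0.642) at 0 min. No KO library overlapped a WT library in any of these 6 genes. In Oasl1 this rests on scaling alone, since WT at 60 min and KO at 0 min each had 3 counts (0.217 and 0.179 CPM). Oas1a is uncertain in another way, since 57.6% of its 50-base windows also occur in another transcript, Oas1g above all, and no source used here says how such reads were counted.

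The IFIT proteins bind viral RNA and block its translation, and their genes stand side by side on chromosome 19 from Ifit2 (34550694 to 34576419, mm10) over Ifit3 (34583531 to 34588731) and Ifit3b (34607970 to 34613401) to Ifit1 (34640871 to 34650009). Their genotype differences ranged from -1.67 to -0.16. Ifit1 had WT counts of 198, 103, 109 and 97 and KO counts of 48, 42, 33 and 26, a log2 fold change of -1.67 ± 0.19, adjusted p = 0.000317, with a ratio of 0.217 (0.155 to 0.299) at 0 min and no overlap between the genotypes. Ifit2 had WT counts of 63, 32, 36 and 42 and KO counts of 53, 41, 28 and 26, a log2 fold change of -0.16 ± 0.23, adjusted p = 0.693, the one tested member not called. Its KO libraries at 1.95 to 3.62 CPM overlapped the WT libraries at 2.3 to 4.2, and at 15 min KO was the higher. Whether Ifit2 and Ifit1 differ from each other in this was not tested. Ifit3 had WT counts of 124, 56, 40 and 52 and KO counts of 45, 28, 27 and 27 (-0.98 ± 0.22, adjusted p = 0.0133), and without the 0 min libraries its value was -0.68 (adjusted p = 0.0632). Ifit3b had WT counts of 37, 21, 21 and 9 and KO counts of 16, 8, 4 and 4 (-1.42 ± 0.30, adjusted p = 0.0112), with KO at 0 and 15 min above WT at 60 min, and the call was lost without a 45 min library (adjusted p = 0.0609 or 0.0574) and by DESeq2 (adjusted p = 0.0789). Ifit3 and Ifit3b share 51.2% and 45.0% of their 50-base windows, almost all with each other, so the split of reads between them is uncertain. Of the 4 promoter windows, those of Ifit1, Ifit3 and Ifit3b held the ISRE core and that of Ifit2 did not.

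**Figure D3:**
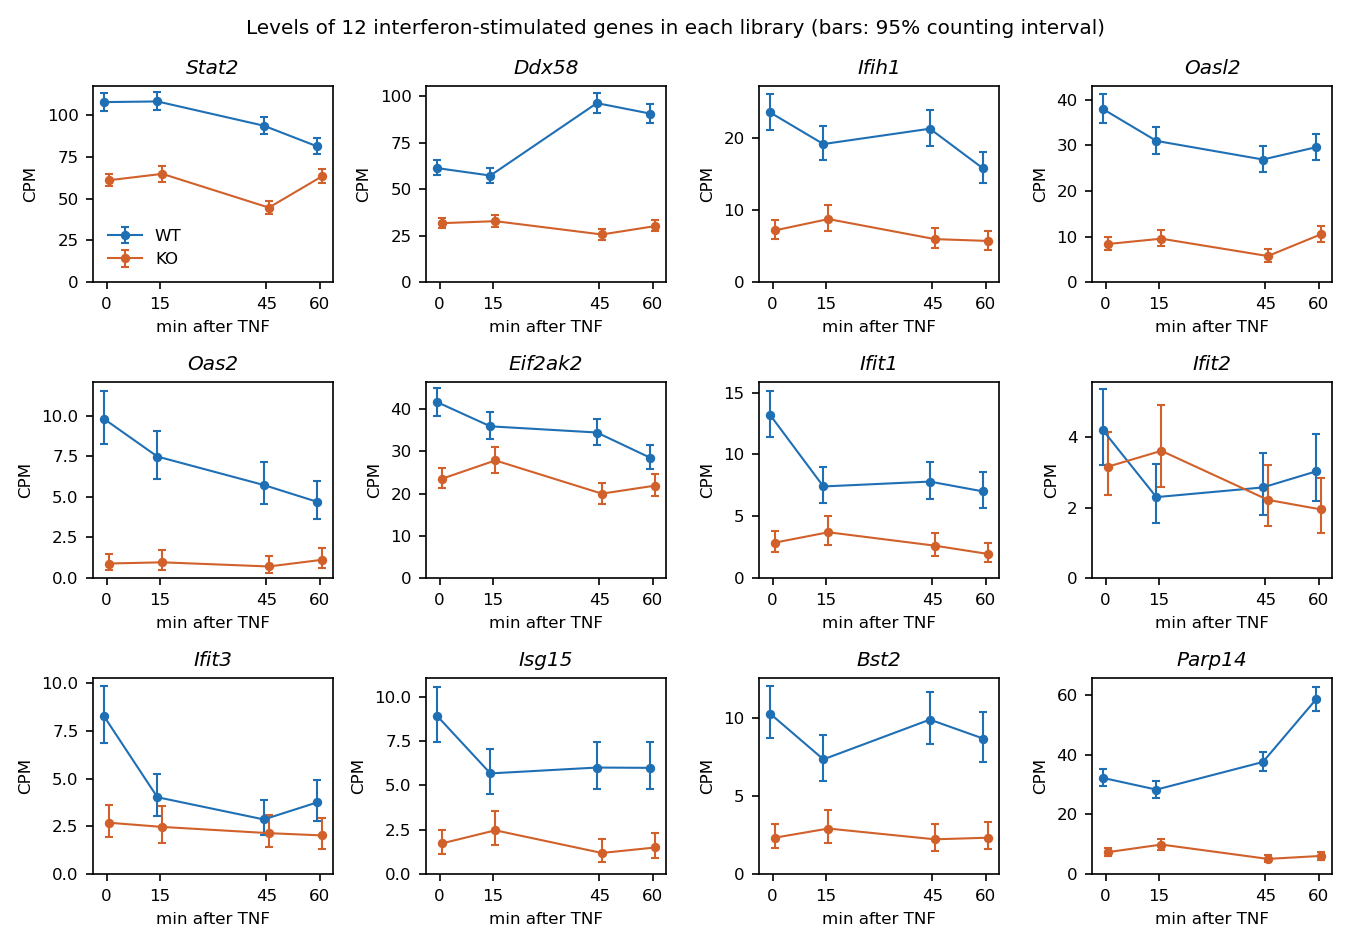
Level in CPM (y axis, from 0) at 0, 15, 45 and 60 min after TNF (x axis) for 12 members, with 1 library per point, WT in blue, KO in orange and bars as the 95% counting interval. The KO line stays below the WT line in each panel but that of Ifit2, where the lines cross.

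Other antiviral effectors were called lower in KO in 6 of 6 cases, against 9.44% of all tested genes. Bst2, which encodes tetherin, a protein that holds budding virus at the cell surface, had WT counts of 154, 102, 138 and 120 and KO counts of 39, 33, 28 and 31 (-1.89 ± 0.17, adjusted p = 6.8e-05), a ratio of 0.227 (0.156 to 0.325) at 0 min. Mx2, a dynamin-like GTPase, had WT counts of 359, 361, 244 and 184 and KO counts of 176, 112, 75 and 89 (-1.28 ± 0.11, adjusted p = 7.08e-05). Its neighbour Mx1 had WT counts of 78, 44, 49 and 28 and KO counts of 48, 29, 15 and 21 (-0.76 ± 0.23, adjusted p = 0.0473), and the call was lost in each of the 8 fits that left out 1 library (adjusted p = 0.0536 to 0.197) and by DESeq2 (adjusted p = 0.183). Mx1 overlapped between genotypes, since its WT level at 60 min, 2.02 CPM, was below the KO levels at 0 and 15 min. Rsad2 encodes viperin, which makes a chain-ending nucleotide, and Cmpk2, the gene beside it, encodes a kinase that prepares that nucleotide's precursor. Rsad2 had WT counts of 67, 71, 52 and 47 and KO counts of 39, 26, 22 and 7 (-1.31 ± 0.25, adjusted p = 0.00617), a call lost without the time block (adjusted p = 0.0516). Cmpk2 had WT counts of 41, 29, 23 and 28 and KO counts of 21, 14, 9 and 7 (-1.20 ± 0.26, adjusted p = 0.0118), although by DESeq2 Cmpk2 was not called (adjusted p = 0.0604). Samd9l, a restriction factor for poxviruses, had WT counts of 186, 109, 152 and 147 and KO counts of 97, 66, 61 and 56 (-1.01 ± 0.15, adjusted p = 0.00164). In Bst2, Mx2, Rsad2, Cmpk2 and Samd9l the genotypes did not overlap.

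PARP9 and DTX3L form a complex that adds ubiquitin and ADP-ribose to proteins, and PARP14 is a related ADP-ribosyl transferase, all from neighbouring genes on chromosome 16. Parp14 had WT counts of 483, 393, 524 and 810 and KO counts of 123, 112, 64 and 81, a log2 fold change of -2.43 ± 0.23, adjusted p = 0.000105, and a ratio of 0.229 (0.186 to 0.279) at 0 min. Dtx3l had WT counts of 177, 130, 174 and 313 and KO counts of 66, 46, 54 and 47 (-1.77 ± 0.21, adjusted p = 0.000332), with a ratio of 0.335 (0.248 to 0.446) at 0 min. Parp9 had WT counts of 332, 280, 312 and 345 and KO counts of 188, 126, 86 and 106 (-1.28 ± 0.15, adjusted p = 0.00036), with a ratio of 0.508 (0.423 to 0.61). The genotypes did not overlap in any of the 3. Parp9 and Dtx3l overlap by 458 bases on opposite strands, and no source used here states the strand setting of the counting, so reads in that stretch may be assigned to either gene.

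The 5 remaining members are known mainly as interferon-induced genes. Ifi27, a small mitochondrial protein, had WT counts of 363, 375, 342 and 323 and KO counts of 330, 237, 159 and 140 (-0.67 ± 0.14, adjusted p = 0.011). Its level at 0 min was close in the genotypes, with a ratio of 0.816 (0.701 to 0.95), and its call was lost when a 45 min library was left out (adjusted p = 0.064 or 0.069). Ifi35 had WT counts of 228, 239, 212 and 212 and KO counts of 151, 129, 98 and 110 (-0.80 ± 0.11, adjusted p = 0.000707) and Ifi44 had WT counts of 172, 144, 154 and 100 and KO counts of 58, 63, 33 and 38 (-1.49 ± 0.18, adjusted p = 0.000439). Xaf1, a protein that promotes apoptosis, had WT counts of 318, 231, 267 and 306 and KO counts of 169, 94, 68 and 131 (-1.25 ± 0.14, adjusted p = 0.00023). Rtp4, a chaperone that also binds viral RNA, had WT counts of 114, 60, 67 and 95 and KO counts of 30, 21, 21 and 20 (-1.78 ± 0.20, adjusted p = 0.000274), the largest difference of these 5. All 5 had KO libraries below every WT library.

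Members whose promoter window held the ISRE core had a median log2 fold change of -1.48 between genotypes (12 of 12 called), those without it -1.22 (9 of 10 tested called) and those with no window in the table -1.41 (10 of 10 called). Of all tested genes 9.44% were called lower. The ranges overlapped widely, from -3.22 to -0.59 with the core and from -1.89 to -0.16 without it, and no difference between these groups was tested.

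No member was past the threshold on the higher side after TNF. In WT, the mean of 45 and 60 min against 0 min was called higher for 0 of 32 members and lower for 1, Ifit3, where 4.17% and 1.31% of all tested genes were called (edgeR, 1 fit to all 8 libraries, with the 45 and 60 min pairs as the only measure of spread). At an unadjusted p under 0.05 there were 2 higher and 10 lower, where 2832 of all 15049 tested genes had such a p in either direction. DESeq2 called 0 in either direction, and limma-voom 0 higher and 2 lower. Of the 32, 25 had a value below 0, with a median of -0.36, beside -0.0039 for all tested genes. All of these values share the single WT library at 0 min. With 15 min as the baseline 20 were below 0 and 12 above, with a median of -0.15. At 15 min 24 of the 33 members were already below their 0 min level. Macrophage markers summed to 103, 91.6, 88.8 and 72.2 CPM in the 4 WT libraries, and their part in these values was not tested. Of a list of 14 TNF-inducible genes, 9 were called higher and 0 lower in the same test, while 5 did not pass. That list was drawn up for induction by TNF with earlier results of these data known, so its rise is no independent contrast with the members. Among the 9 were Irf1, with WT counts of 224, 1162, 4053 and 3110 and KO counts of 176, 114, 203 and 234 (log2 late response in WT 4.11 ± 0.24, adjusted p = 1.49e-06), and Nfkbia with WT counts of 204, 1916, 3264 and 2527 and KO counts of 178, 121, 169 and 135 (3.94 ± 0.25, adjusted p = 2.63e-06).

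Ifit3 fell from 124 counts at 0 min to 56, 40 and 52, a log2 late response of -1.32 ± 0.29 (adjusted p = 0.0187). The fall was already there at 15 min, with a ratio to 0 min of 0.488 (95% interval 0.349 to 0.674). With 15 min as the baseline the late value was -0.28 (adjusted p = 0.704), and by DESeq2 the adjusted p was 0.359, so the call turns on the 0 min library and on the tool. It was also lost without the WT library at 45 min (adjusted p = 0.0558). Members next in line, none of them past the threshold, were Usp18 (-0.99 ± 0.28, adjusted p = 0.0572), Ifit1 (-0.83 ± 0.24, adjusted p = 0.0664) and Oas2 (-0.91 ± 0.28, adjusted p = 0.0821). Usp18 was called lower without the WT library at 45 min (-1.28, adjusted p = 0.0125) and without the KO library at 45 min or 60 min (adjusted p = 0.0436 or 0.0407). By the rule of size, 1 member was at least 2-fold lower in WT at 15 min (Ifit3), 2 at 45 min (Ifit3 and Zbp1) and 5 at 60 min (Ifit3, Ifit3b, Mx1, Oas2 and Usp18), against 1.19%, 2.84% and 3.35% of all tested genes. Oas1a, with 24 counts at 45 min against 12 at 0 min, was the single member at least 2-fold higher at any time, where 0.857%, 4.13% and 5.01% of all genes were. These ratios share the 0 min library.

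The members with values above 0 after TNF in WT were Ddx58, which encodes RIG-I, the ADP-ribosylation genes Parp14, Dtx3l and Parp9, 2 OAS genes with few counts, and Ifi35, near 0. Ddx58 went from 922 and 798 counts at 0 and 15 min to 1347 and 1257 at 45 and 60 min, a log2 late response of 0.61 ± 0.17 (adjusted p = 0.0654), and was at 1.57 (1.44 to 1.71) and 1.48 (1.36 to 1.61) times its 0 min level. Without the KO library at 45 min or that at 60 min, which changes the shared estimate of spread, the adjusted p was 0.0465 or 0.0431. In KO its late value was -0.18 ± 0.18. The difference between the 2 responses was 0.79 ± 0.25 (adjusted p = 0.319), and it passed only with 0 and 15 min together as the baseline (0.86, adjusted p = 0.0316). Parp14 had a late value of 0.58 ± 0.24 (adjusted p = 0.218) and Dtx3l of 0.57 ± 0.31 (adjusted p = 0.35), and both were at their highest at 60 min, with ratios to 0 min of 1.82 (1.62 to 2.04) and 1.92 (1.59 to 2.32). Without the WT library at 45 min both were called higher, at 0.85 (adjusted p = 0.0313) and 0.92 (adjusted p = 0.0451). In KO their late values were -0.40 ± 0.30 and -0.02 ± 0.38, and the differences of the responses, 0.97 ± 0.38 and 0.59 ± 0.49, did not pass (adjusted p = 0.509 and 0.926). Parp9, which shares the locus, had 0.10 ± 0.19 in WT.

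In KO, 0 of 32 members were called in either direction late after TNF (edgeR), where 1.32% of all tested genes were called higher and 0.518% lower. At an unadjusted p under 0.05 there were 0 higher and 7 lower, where 2667 of all 15049 tested genes had such a p in either direction. DESeq2 and limma-voom also called 0 members. The median was -0.36 beside -0.0054 for all genes, with 30 of 32 members below 0. Nearest the threshold was Ifi27, with -0.77 ± 0.19 (adjusted p = 0.0658), from 330 and 237 counts at 0 and 15 min to 159 and 140, and it passed without the WT library at 45 min or 60 min (adjusted p = 0.0448 or 0.0249). By size, 0 members were 2-fold lower in KO at 15 min, 1 at 45 min (Mx1) and 1 at 60 min (Rsad2), against 1.15%, 2.78% and 3.22% of all tested genes, and 0 were higher (0.585%, 2.58% and 3.02%). The late responses of the genotypes differed for 0 members, where 0.492% of all tested genes had a larger response in WT and 0.00664% in KO. At an unadjusted p under 0.05 there were 4, all larger in WT, where 1148 of all 15049 tested genes had such a p in either direction. DESeq2 and limma-voom called 0 members.

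**Figure D4:**
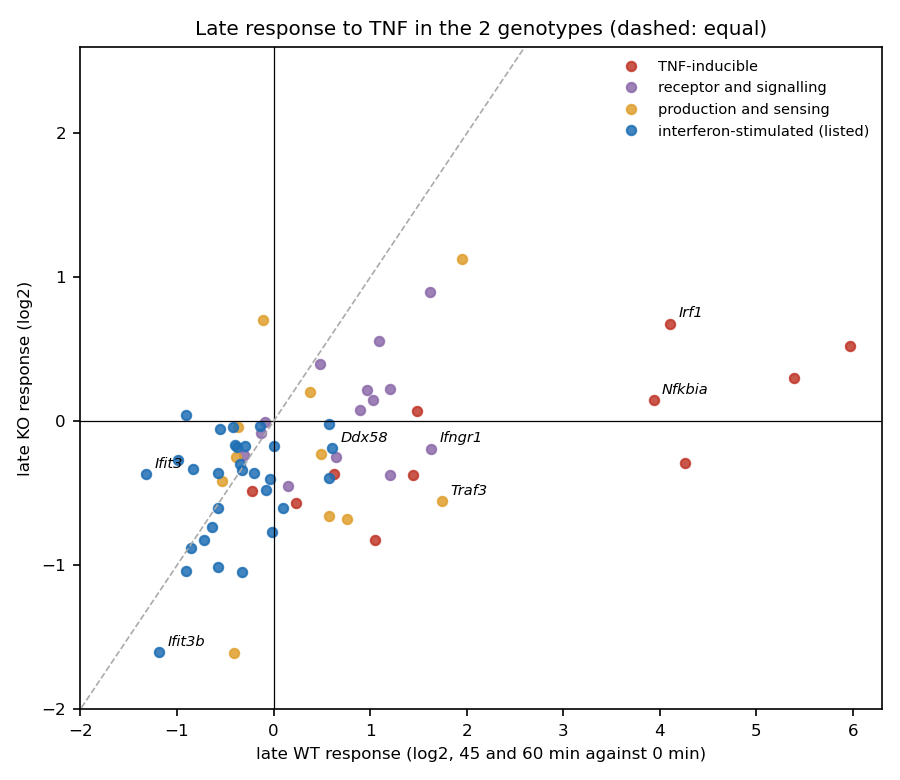
Log2 late response to TNF (45 and 60 min against 0 min) in WT (x axis) and KO (y axis), 1 point per gene, for the 30 interferon-stimulated genes and the 11 TNF-inducible, 14 receptor and signalling and 11 production and sensing genes that had at least 10 counts over the KO libraries, with a dashed line of equal response. The interferon-stimulated genes lie between -1.32 and 0.61 in WT, while Irf1 and Nfkbia lie at 4.11 and 3.94.

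Gene by gene, the signalling and conjugation members had late log2 values below 0 in both genotypes. Stat2 had -0.30 ± 0.20 in WT and -0.18 ± 0.21 in KO, Isg15 -0.57 ± 0.26 and -0.36 ± 0.38, Usp18 -0.99 ± 0.28 and -0.27 ± 0.35, and Herc6 -0.72 ± 0.26 and -0.83 ± 0.33. Of the sensing group other than Ddx58, Ifih1 had -0.35 ± 0.21 in WT and -0.30 ± 0.25 in KO, Dhx58 -0.56 ± 0.29 and -0.05 ± 0.34, Zbp1 -0.85 ± 0.42 and -0.88 ± 0.67, and Trim25 -0.08 ± 0.17 and -0.48 ± 0.18. Of the OAS group and PKR, Oas2 had -0.91 ± 0.28 in WT and 0.04 ± 0.49 in KO, Oasl2 -0.43 ± 0.25 and -0.04 ± 0.29, and Eif2ak2 -0.40 ± 0.18 and -0.17 ± 0.19. Oas1a and Oas3 were above 0 in WT, at 0.73 ± 0.59 and 0.76 ± 0.67, with standard errors about as large as the values, and too low in KO to be read. None of these passed the threshold in either genotype.

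Among the IFIT genes, Ifit1 had late values of -0.83 ± 0.24 in WT and -0.33 ± 0.32 in KO, Ifit2 -0.58 ± 0.32 and -0.60 ± 0.34, Ifit3 -1.32 ± 0.29 and -0.37 ± 0.35, and Ifit3b -1.19 ± 0.48 and -1.60 ± 0.69. All 4 were thus below 0 in both genotypes, with Ifit3 in WT the one that passed. Of the effectors, Bst2 had -0.15 ± 0.24 in WT and -0.03 ± 0.32 in KO, Mx1 -0.91 ± 0.36 and -1.04 ± 0.42, Mx2 -0.64 ± 0.21 and -0.73 ± 0.24, Rsad2 -0.33 ± 0.40 and -1.05 ± 0.50, Cmpk2 -0.57 ± 0.39 and -1.01 ± 0.51, and Samd9l -0.20 ± 0.22 and -0.36 ± 0.25. Parp9 had -0.60 ± 0.21 in KO. Of the last group, Ifi27 had -0.02 ± 0.19 in WT, Ifi35 0.01 ± 0.20 in WT and -0.17 ± 0.21 in KO, Ifi44 -0.33 ± 0.27 and -0.34 ± 0.34, Xaf1 -0.04 ± 0.26 and -0.40 ± 0.29, and Rtp4 -0.38 ± 0.29 and -0.18 ± 0.41. Ifi27, Ifi35 and Xaf1 stood near 0 in WT.

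The genes that make and sense interferon were read from a list of 14. Ifnb1 had 0 counts in all 8 libraries, Ifna2 1, 1, 0 and 0 in WT and 0 in KO, and Ifna4 1 count in all, so none of the 3, which were named after their values were seen, exceeded the limit of 3 counts in any library. Of the 11 tested genes, 4 were lower in KO and 0 higher, where 9.44% and 6.81% of all tested genes were: Irf5 (-3.59 ± 0.27, adjusted p = 2.74e-05), Irf7 (-1.23 ± 0.13, adjusted p = 0.000167), Traf3 (-1.42 ± 0.39, adjusted p = 0.0334) and Ikbke (-0.94 ± 0.25, adjusted p = 0.0292). The count lower was 2 by DESeq2, with robust empirical Bayes, or without any 1 of the 4 libraries of 45 and 60 min, and 7 with total counts. Irf5 had WT counts of 60, 52, 181 and 248 and KO counts of 7, 9, 7 and 17. Macrophage markers fell in the same comparison, with a median of -4.85, and their part in these values was not tested. Irf7, the factor that amplifies interferon production and is itself induced by interferon, had WT counts of 204, 155, 143 and 118 and KO counts of 94, 50, 49 and 60, with no overlap between the genotypes. Late after TNF in WT 3 rose and 0 fell (4.17% and 1.31% of all tested genes), namely Irf5 (1.95 ± 0.34, adjusted p = 0.00473), Traf3 (1.75 ± 0.31, adjusted p = 0.00514) and Ikbke (0.76 ± 0.18, adjusted p = 0.0314). With no filter 0 of them passed. Irf7 was not among the 3, at -0.53 ± 0.23 (adjusted p = 0.221).

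The receptor and its signalling genes, 14 of 14 tested, held 3 that were lower in KO, among them Irf9 and Ifngr2 (the latter at -1.12 ± 0.23, adjusted p = 0.00846), and 1 that was higher (Stat3, 0.26 ± 0.07, adjusted p = 0.0255), beside 9.44% and 6.81% of all tested genes. The count lower was 8 without either 0 min library, 7 without either 15 min library, 2 without any other library, 1 without the time block, 5 by DESeq2 or limma-voom, and 9 with total counts or no filter. The Stat3 call was lost without any 1 of the 6 libraries after 0 min, without the time block and with total counts. Late after TNF in WT 6 of the 14 rose and 0 fell, against 4.17% and 1.31% of all tested genes, and with total counts 2 rose. Ifnar1, a chain of the type I receptor, had WT counts of 477, 398, 879 and 1002 and KO counts of 470, 326, 497 and 578, a late response of 1.09 ± 0.18 in WT (adjusted p = 0.00398) and 0.56 ± 0.18 in KO. Ifngr1 and Ifngr2, the chains of the interferon gamma receptor, had 1.63 ± 0.21 and 1.62 ± 0.22 in WT (adjusted p = 0.000635 and 0.00108). Irf9 did not pass late after TNF in WT (-0.09 ± 0.17, adjusted p = 0.835).

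Another list of 56 interferon-stimulated genes that are not members gave 34 lower and 0 higher in KO of 47 tested, where 9.44% and 6.81% of all tested genes were called, with a median of -0.98. The macrophage markers given above fell in the same comparison, and their part here was not tested either. Rnf213, a large ubiquitin ligase and the most abundant of them, had WT counts of 11572, 10821, 9836 and 8402 and KO counts of 5318, 3927, 3451 and 4572 (-1.16 ± 0.09, adjusted p = 4.08e-05). Trim30a had WT counts of 317, 263, 211 and 182 and KO counts of 52, 27, 30 and 37 (-2.66 ± 0.14, adjusted p = 2.89e-06), and Ddx60, an RNA helicase linked to RIG-I, had WT counts of 449, 327, 216 and 195 and KO counts of 98, 48, 37 and 69 (-2.16 ± 0.17, adjusted p = 2.9e-05). Late after TNF in WT 1 rose, Slfn2 (1.99 ± 0.26, adjusted p = 0.000801), and 2 fell, Ddx60 (-1.02 ± 0.23, adjusted p = 0.0247) and Tent5a (-0.84 ± 0.21, adjusted p = 0.0396). These counts are close to the 4.17% and 1.31% of all tested genes, and the count that fell was 0 by DESeq2, with no filter and with 15 min as baseline, and 1 without the WT library at 45 min. This list, too, was drawn up with earlier results of these data known.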

How the data were processed

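The submitters' processing notes name the genome build mm10 and the tools featureCounts 1.5.0, STAR, cutadapt 1.12 and DESeq2. The authors deposited raw whole-number counts, 1 column per library, per the file headers. No source used here gives the annotation release or the handling of reads that map to several places. Symbols came from the gene identifiers.

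The 15049 genes that reached 10 counts in 2 or more libraries were tested with edgeR 4.0.16 in R 4.3.3 after TMM scaling, with factors of 0.818 to 1.21 (quasi-likelihood, Benjamini-Hochberg over all tested genes, threshold 0.05). The genotype comparison had time as a block, with 3 residual degrees of freedom, so the 4 times stand in for replicates. The late comparisons came from 6 cell means, with 2 residual degrees of freedom from the 45 and 60 min pairs. P-values measure only the spread between these libraries, which may be technical. SE was taken as log2 fold change over root F. Ratios of 2 libraries carry exact Clopper-Pearson 95% intervals. No library was a duplicate (chi-square of at least 7.73 per degree of freedom for any pair). The fits were tested on simulated counts. Alternatives used DESeq2 1.42.0, limma-voom (limma 3.58.1), other scalings, filters and baselines, and left out libraries.

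Members and lists were chosen with earlier results of these data known. Counts per library are given for all members. Of each related list the 3 most abundant genes and the 3 with the smallest p for genotype and late WT could be named. Values of 1 gene of the signalling list are not shown.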

Additional observations from a re-analysis of the deposited data

Results flagged for a closer look

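The members, the list of interferon production and sensing and that of the receptor and signalling were searched for late responses that differed between genotypes. In 4 genes of these related lists the late response to TNF (log2, 45 and 60 min against 0 min) differed between WT and KO. This was the test of the difference itself (edgeR, adjusted p under 0.05). In Ifngr1, a chain of the interferon gamma receptor, the WT response minus the KO response was 1.82 ± 0.28 (SE, adjusted p = 0.0131), from 1.63 in WT and -0.19 in KO. For Ifnar2, a chain of the type I interferon receptor, it was 1.57 ± 0.30 (adjusted p = 0.0464), from 1.20 and -0.37. For Ikbke, a kinase of the interferon regulatory factors, it was 1.44 ± 0.26 (adjusted p = 0.0297), from 0.76 and -0.68. For Traf3, an adaptor of the same pathway, it was 2.30 ± 0.42 (adjusted p = 0.0324), from 1.75 and -0.56. The Ifnar2 difference had an adjusted p of 0.352 by DESeq2 and 0.0617 by limma-voom, and that of Traf3 0.36 and 0.0604. Without the KO library at 45 min the adjusted p was 0.0638 for Ikbke and Traf3 and 0.0788 for Ifnar2, and without that at 60 min it was 0.0892 for Ifnar2. With 15 min as baseline none of the 4 passed (adjusted p = 0.0885 for Ifngr1, 0.177 for Ifnar2, 0.0657 for Ikbke and 0.0728 for Traf3), and none with no filter (0.15, 0.27, 0.275 and 0.402). With total counts Ikbke and Ifnar2 were at 0.209, and with 10 counts required in every library Ifnar2 was at 0.054. No member of the interferon-stimulated list differed in this test. The TNF-inducible list was not part of this search, and genes of it passed the same edgeR test too. Among them were Irf1 (3.43 ± 0.30, adjusted p = 0.000149) and Nfkbia (3.79 ± 0.33, adjusted p = 0.000149).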

How the results depend on the processing

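Depth limits Oas1a, Oas3 and Oasl1, which had 3 counts or fewer per KO library. The number of members lower in KO was 31 and ran from 24, where 10 counts were required in every library, to 32 with no filter. It was 28 by DESeq2, 26 without the time block and 26 to 30 when 1 library was left out. None of the 31 calls reversed in the alternatives in which the gene was tested, and 24 held in all of those (16 for Oas3, 20 for Zbp1, Oas2 and Oas1a, and 21 for the other 20). Mx1, Ifit3b, Ifit3, Ifi27, Dhx58, Rsad2 and Cmpk2 lost theirs in 1 or more. Scaling by total counts moved the median of all genes to -0.17 for genotype and -0.21 for late WT and late KO, so its values are relative to that. It moved the genotype calls over all genes from 1025 higher and 1421 lower to 477 and 2898. They were 574 and 961 by DESeq2 and 360 and 708 without the time block. The count of members at least 2-fold lower at 0 min was 20, and 26 with total counts, 28 at 1.5-fold and 17 with 50 counts required. The count whose genotypes did not overlap was 28 with totals that leave out the 3 most abundant gene models. That alternative was added after seeing the data. The late counts moved with the setting. In WT, 0 members were higher, but 2 (Ddx58 and Parp14) with 0 and 15 min as baseline, 1 (Ddx58) with 15 min as baseline, and 0 to 2 when 1 library was left out. In WT, 1 member was lower, but 0 by DESeq2, 0 with no filter, 0 with 15 min as baseline, 2 by limma-voom, 2 with total counts, 2 with 0 and 15 min as baseline, 4 with totals that leave out the 3 gene models, and 1 to 2 when 1 library was left out. In KO, 0 members were lower, but 1 (Ifi27) with totals that leave out the 3 gene models, 3 (Ifi27, Parp9 and Mx2) with 0 and 15 min as baseline, and 0 to 1 when 1 library was left out. A larger response in WT was called for 1 member, Ddx58, with 0 and 15 min as baseline. Over all genes the late WT calls were 628 higher and 197 lower, and 379 and 47 by DESeq2, 304 and 280 with total counts and 1097 and 572 with 0 and 15 min as baseline. The cause of these shifts was not tested. Late contrasts of a genotype without its own 0 min library could not be estimated and were not run. The genotype comparison matches KO and WT by time, and with 1 library in each group there are no replicate numbers to block on.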

Other observations

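Ifi35 overlaps Gm11626 by 290 bases on the opposite strand. In the order 0, 15, 45 and 60 min, Gm11626 had WT counts of 9, 10, 20 and 20 and KO counts of 12, 11, 35 and 36, while Ifi35 had WT counts of 228, 239, 212 and 212 and KO counts of 151, 129, 98 and 110. Reads of the shared stretch cannot be assigned without knowing the strand setting. Parp9 and Dtx3l, both members, are described above. Of the remaining opposite-strand neighbours, Gm26637 beside Eif2ak2 had 1 to 10 counts per library and Dhx58os beside Dhx58 had 0 to 5.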
